A study of Mus musculus with 20 samples.

Results

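The change in spinal cord gene expression between 17 and 80 days post-induction (dpi) of experimental autoimmune encephalomyelitis (EAE) was examined in mice carrying the GFAP-IkappaBalpha-dn transgene (TG). EAE is an induced autoimmune inflammation of the central nervous system used as a model of multiple sclerosis. The comparison is TG at 80 dpi over TG at 17 dpi, estimated from 1 linear model of 16 two-colour arrays. Of the 20 arrays of the series, 10 hold an animal of either TG group, and only 1 of them pairs the groups directly.

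The TG 80 dpi group comprised animals 21, 26 and 27 on 6 arrays. The TG 17 dpi group comprised animals 1, 3 and 7 on 5 arrays. WT littermates at 80 dpi (animals 13, 14 and 15) and at 17 dpi (animals 1 and 4), naive TG mice (animals 5, 7 and 8) and naive WT mice (animals 2, 3 and 4) entered the same model. All were female and on the C57BL/6 strain, and came from heterozygous transgenic fathers and WT mothers. The EAE animals of both genotypes received 150 ug of MOG(35-55) peptide in complete Freund's adjuvant on days 0 and 7, and 500 ng of pertussis toxin on days 0 and 2. The labels give every animal an age of 60 days, whatever its time after induction, and the design text gives 2 to 4 months, so time since induction and age cannot be told apart. The transgene is driven by the promoter of the astrocyte gene Gfap, so it is expressed in astroglia. For WT at 17 dpi the titles name 2 animals, although 3 per time point are stated.

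IkappaBalpha holds the NF-kappaB transcription factors in the cytoplasm until inflammatory signals cause its breakdown, and a dominant negative form that resists breakdown keeps them there. NF-kappaB in astrocytes drives chemokines, adhesion molecules and cytokines that draw leukocytes into the cord. EAE in C57BL/6 mice given MOG peptide has an acute phase of leukocyte entry followed by a chronic phase with demyelination, axon loss and glial scarring.

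Ratios and fold changes are given on the log2 scale throughout, and each array gave 43710 to 43894 ratios. The file states neither the base of the log nor which animal is the numerator. A working direction chosen with the data in view puts the TG animal over its WT partner, the EAE animal over its naive partner, and the first-named time over the second for TG 80 and 17 dpi and for WT 17 and 80 dpi. The 3 arrays within TG have the same direction in the order of their titles. All 3 have the numerator in Cy5, so no comparison within TG has a dye swap. Ratios of single arrays given below hold the dye effect unless its removal is stated. The SD of the ratios over probes was between 0.286 and 0.730 on 15 arrays and 1.07 where TG animal 3 was set against WT animal 4 at 17 dpi. Because only ratios are given, the cord tissue could not be checked against the level of its markers.

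Between the times, 2070 of 30835 features were higher at 80 than at 17 dpi in TG cord (6.71%) and 1528 were lower (4.96%), together 11.7%, at an adjusted p under 0.05 (limma, Benjamini-Hochberg over all features). The features include 19087 named genes, of which 1299 were higher and 865 lower. Most shifts were small: the median of absolute fold changes was 0.18 with a median standard error (SE) of 0.12, and 130 called features changed by more than 1. The highest genes included Igf2 and Ogn, which encode secreted proteins, and the noncoding RNAs Meg3 and Snhg11. The lowest included the chemokines Cxcl10 and Ccl2, the prefoldin gene Pfdn4 and the ribosomal protein gene Rpl35.

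How many features pass rests on a few animals. Without TG 17 dpi animal 1 the model called 1 feature, which has no gene symbol, and without TG 80 dpi animal 21 it called 10, among them Igf2, Pltp and Col6a1. Without the array that pairs these animals 167 were called, and without TG 80 dpi animal 27, 280. Without the array of TG animal 3, the widest in spread, the count was 8517. The fold change kept its sign for all 3598 called features in each of these fits. That is fixed in part in advance, since each fit keeps most of the arrays that made the calls. In title order on every array limma called 0 features, with 3478 at an unadjusted p under 0.05, and 3594 of the 3598 kept their sign. Those signs too are fixed in part, since the arrays within TG are read the same way in title order.

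The groups are linked by 3 routes, whose values are given with the fitted dye effect removed and without a test. The direct array compares animals 21 and 1. The route through naive TG cord subtracts the array of 17 dpi animal 1 over naive animal 5 from that of 80 dpi animal 27 over naive animal 8. The route through WT joins 4 arrays of TG over WT at 80 dpi, 3 at 17 dpi and 1 of WT at both times, and it alone holds 17 dpi animals 3 and 7. Of the 3598 called features, 3594 had the same sign by all routes, a count fixed in part by the model that called them from the same arrays.

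**Figure D1:**
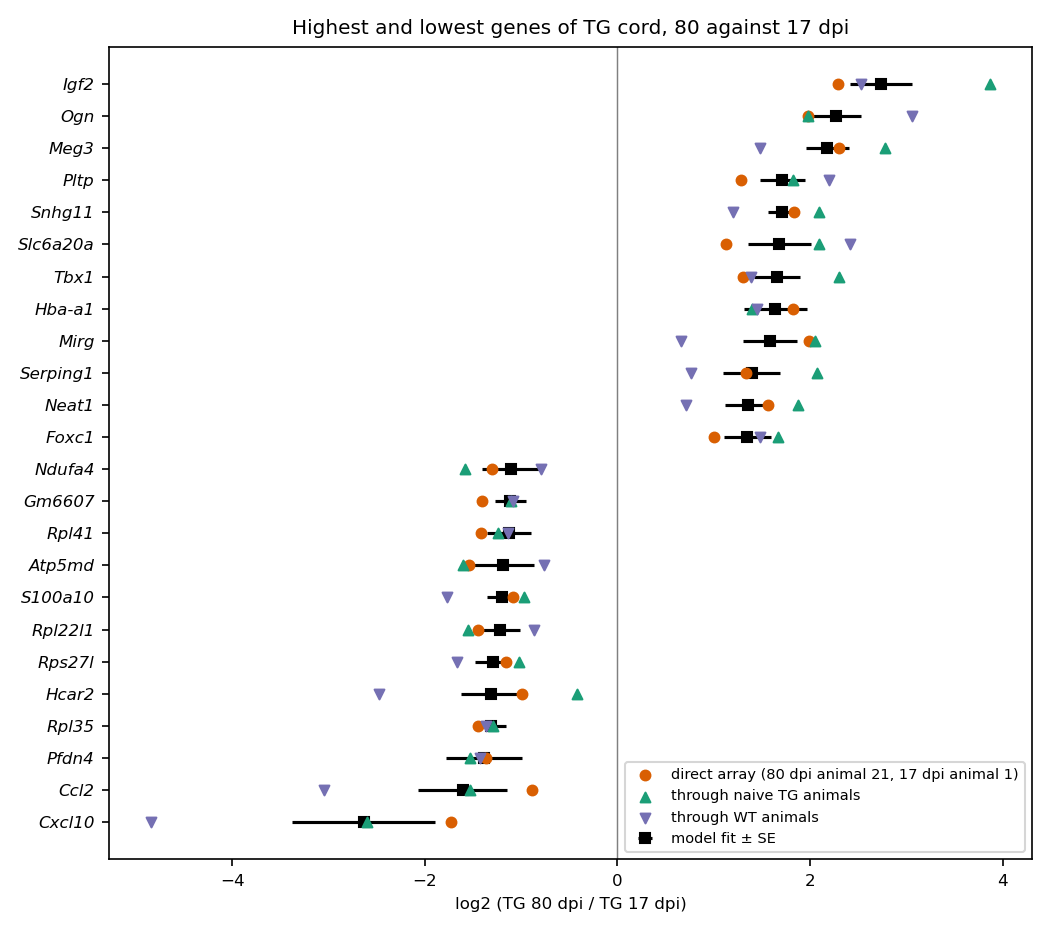
The 12 highest and 12 lowest genes of TG cord at 80 over 17 dpi, with the log2 fold change of the model and its SE (black squares) and the 3 routes on the horizontal axis. Every route lies on the same side of 0 for each of the 24 genes, which were chosen from calls of the same arrays and for their sign on the direct array. The routes of Cxcl10 spread from -1.73 on the direct array to -4.84 through WT.

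Igf2, which encodes a secreted growth factor made by the leptomeninges and the choroid plexus, was the highest gene outside the muscle genes set aside. Its ratio was 2.51 on the direct array, 3.19 for 80 dpi animal 27 over its naive partner and -0.68 for 17 dpi animal 1 over its naive partner. The TG over WT ratios were -1.76, -0.91, -0.78 and -0.70 at 80 dpi, against 0.31, 0.52 and -0.10 at 17 dpi. Animal 21 was thus above the 17 dpi animal and animal 27 above naive TG cord, and all 3 animals of 80 dpi lay below WT cord of their own time. Igf2 rose by 2.74 ± 0.32 at 80 over 17 dpi (adjusted p = 0.00193, limma, 3 and 3 animals), and its separate probes gave 3.03 and 2.44.

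Ogn encodes osteoglycin, a small proteoglycan of fibrous matrix. Its ratio was 2.13 on the direct array, 2.82 for 80 dpi animal 27 over naive and 0.84 for 17 dpi animal 1 over naive. Over WT it gave -0.87, -0.47, -0.61 and -0.81 at 80 dpi, against 0.31, -0.77 and -0.59 at 17 dpi. Ogn rose by 2.27 ± 0.26 (adjusted p = 0.0017, limma). Both single-array ratios over naive were above 0, the one at 80 dpi by far the higher, with the dye effect left in. The model estimates of Ogn over naive are given further below.

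Other genes of meninges, matrix and vessels were higher as well. Of 21 measured genes of the meninges and transport list, 5 rose and 0 fell, with a median of 0.24 against -0.03 over all features and 6.71% of all features higher. They were Igf2, Slc6a20a, a proline transporter (1.68 ± 0.33), Rbp4, the retinol carrier (1.28 ± 0.26), Mgp, the inhibitor of matrix calcification (1.23 ± 0.20), and Foxc2 (0.23 ± 0.06). Foxc1, a forkhead transcription factor of meningeal development, rose by 1.35 ± 0.24, Pltp, a phospholipid transfer protein, by 1.71 ± 0.23, and the T-box factor Tbx1 by 1.65 ± 0.24. Of 35 genes of collagens and matrix, 7 rose (6.71% of all features did) and 0 fell, and the list median was 0.08. They included Col6a1 (0.90 ± 0.15), Col4a2 of basement membranes (0.76 ± 0.10) and Col18a1 (0.56 ± 0.11). Separate probes of Col4a2 gave 1.12 and 0.40. Igf2 and Mgp are members of this list too, and 28 of its genes did not pass.

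Of 28 endothelial and vessel genes, 6 rose and 0 fell (median 0.23, with 6.71% of all features higher). The tight junction gene Cldn5 rose by 0.97 ± 0.17, the clotting factor gene Vwf by 0.84 ± 0.19, Itm2a by 0.73 ± 0.21, the transcription factor gene Sox18 by 0.45 ± 0.08 and the angiopoietin receptor gene Tek by 0.38 ± 0.11. Separate probes of Vwf ran from -0.03 to 1.71 and those of Tek were -0.07 and 0.84, so these 2 genes depend on the probe. Red blood cell genes moved with them: 5 of 8 rose, beside 6.71% of all features, and 0 fell (median 0.43). They were Hba-a1 (1.64 ± 0.33), Hba-a2 (1.24 ± 0.17) and Hbb-bt (1.14 ± 0.26), which encode globin chains, the haem synthesis gene Alas2 (0.58 ± 0.17) and Bpgm (0.29 ± 0.08). Bpgm depends on the probe as well (0.51 and 0.07). The alpha globin genes are near-identical copies whose probes may share signal. The red blood cell list had medians of 0.29 to 0.66 on the 4 arrays of TG over WT at 80 dpi and of 0.31 to 0.55 on the 3 at 17 dpi. The part of blood or of meninges left on the cord in these values was not tested.

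In bulk cord, more cells of a type and more RNA per cell cannot be told apart, which holds for every cell marker given here.

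Of the 12 highest genes, Meg3, Snhg11, Mirg and Neat1 are noncoding RNAs, for which no list was fixed. Meg3, an imprinted noncoding RNA transcribed on chromosome 12 and abundant in neurons, had a ratio of 2.47 on the direct array, 0.32 for 80 dpi animal 27 over naive and -2.46 for 17 dpi animal 1 over naive. Its TG over WT ratios were 0.34, -0.13, 0.44 and 0.18 at 80 dpi, against -0.23, 0.64 and -0.12 at 17 dpi. The 17 dpi animal was thus far below naive cord and the 80 dpi animal was not, and the TG over WT ratios had mixed signs at both times. Meg3 rose by 2.18 ± 0.22 (adjusted p = 0.00108, limma). Mirg, a microRNA host transcript also on chromosome 12, rose by 1.59 ± 0.28, Snhg11, a small nucleolar RNA host gene, by 1.71 ± 0.15 and Neat1, the scaffold of nuclear paraspeckles, by 1.36 ± 0.24. The 4 probes of Snhg11 ran from 1.36 to 2.14.

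Cxcl10 encodes the interferon-induced chemokine that attracts T cells through CXCR3, and it was the lowest gene. Its ratio was -1.64 on the direct array, 0.60 for 80 dpi animal 27 over naive and 3.21 for 17 dpi animal 1 over naive. Over WT the values were -1.04, -2.35, -2.62 and -1.23 at 80 dpi, against -1.62, -3.19 and -0.29 at 17 dpi. All 7 arrays of TG over WT lay below 0, and those of the times overlapped. Cxcl10 fell by 2.64 ± 0.74 at 80 against 17 dpi (adjusted p = 0.0407, limma), with -1.28 in title order.

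Of 24 chemokine genes, 4 fell and 0 rose (median -0.29, with 4.96% of all features lower). Ccl2, the main attractant of monocytes, fell by 1.61 ± 0.46, Ccl12, which acts on the same receptor, by 0.86 ± 0.25 and Ccl20, which draws CCR6-bearing T cells, by 0.31 ± 0.08. The list median changed sign in title order (0.07). Leaving out 1 animal moved Ccl2 between -2.51 without TG 17 dpi animal 1 and -1.07 without WT 17 dpi animal 1. Over the same fits Ccl12 ran from -1.69 to -0.42 and Hcar2, named next, from -2.11 to -0.76. Among 24 cytokine and receptor genes only Il23a passed, a subunit of interleukin 23 (-0.40 ± 0.07), beside 11.7% of all features called. Hcar2, the receptor for niacin and beta-hydroxybutyrate on myeloid cells, fell by 1.31 ± 0.32 with all animals.

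Of 42 genes of the interferon response only Cxcl10 passed, beside 11.7% of all features, although 41 of 42 fold changes were below 0 (median -0.35). Ifit3, an antiviral RNA-binding protein, gave -1.05 ± 0.32 (adjusted p = 0.0543, limma), and the immunity-related GTPases Igtp and Irgm1 gave -0.79 ± 0.32 and -0.52 ± 0.18. The list median was -0.07 by the direct route, -0.16 through naive TG and -0.57 through WT. It was -0.79 without TG 17 dpi animal 1, -0.09 without WT 17 dpi animal 1 and 0.08 in title order. Many interferon genes carry the interferon-stimulated response element upstream of their start. The upstream stretches below carry the core of that element. They belong to Cxcl10, the lowest gene, and to Igtp, Irgm1 and Ifit3, which were named by p-value. For Cxcl9, also named by p-value, no match was found. The core, which is GAAA, any 2 bases and GAAA again on either strand, is in capitals (RefSeq, GRCm38.p6, sequence read 5′ to 3′ along the gene).
Cxcl10, chr5:92349063-92349132, minus strand: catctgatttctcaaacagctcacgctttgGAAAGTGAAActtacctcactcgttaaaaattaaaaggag
Igtp, chr11:58199492-58199555, plus strand: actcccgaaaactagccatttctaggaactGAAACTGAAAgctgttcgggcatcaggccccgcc
Irgm1, chr11:48871421-48871480, minus strand: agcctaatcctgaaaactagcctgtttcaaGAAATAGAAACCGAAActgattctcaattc
Ifit3, chr19:34583343-34583446, plus strand: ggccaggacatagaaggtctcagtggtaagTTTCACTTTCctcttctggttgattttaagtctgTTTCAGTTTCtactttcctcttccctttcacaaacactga
The first base of the core lies 213 bases before the start of Cxcl10, 34 before Igtp, 30 before Irgm1, where a second core overlaps the first, and 156 before Ifit3, where a second follows. The core was found in the 250 bases before the start of 18 of 31 list members with a RefSeq promoter (58.1%), and of 526 of 15306 tested genes (3.44%). The sterol element core CACCCCAC was found in 1 of 17 cholesterol synthesis genes (5.88%), Hmgcs1, and in 480 of the 15306 genes (3.14%). These matches are letters in a window and were not tied to the fold changes.

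Lists of leukocytes and microglia held calls in both directions, beside 11.7% of all features called. Of 24 monocyte and macrophage genes, Ms4a6d (-0.90 ± 0.15) and the Fc receptor gene Fcgr3 (-0.72 ± 0.20) fell and the chemokine gene Pf4 rose (0.96 ± 0.21), with a median of -0.18. Of 15 genes of homeostatic microglia, Aif1, which encodes the microglial protein Iba1, fell by 1.03 ± 0.20, and the phagocytic receptor gene Mertk rose by 0.64 ± 0.18. None of 26 genes of phagocyte activation passed (median 0.01). Of 26 T and NK cell genes the costimulator gene Cd28 fell (-0.45 ± 0.13), with -0.31 ± 0.18 on 1 of its 2 probes. Among 18 neutrophil genes Mpo rose (0.24 ± 0.07), with only 1 of its 2 probes moving, and among 14 B and plasma cell genes 0 passed. Of 14 complement genes the anaphylatoxin receptor gene C5ar1 fell (-0.46 ± 0.10) and Serping1, the C1 inhibitor, rose (1.39 ± 0.29).

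Calls of antigen presentation genes at 80 against 17 dpi in TG cord stand beside 11.7% of all features called. None of 11 MHC class II genes passed (median 0.07). Among 22 class I and processing genes (median 0.05), Erap1 (-0.80 ± 0.19) and Psmb10 (-0.62 ± 0.18) fell. Erap1 trims peptides for MHC class I.

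Gfap, the astrocyte filament gene whose promoter drives the transgene, fell. Its ratio was -0.57 on the direct array, 0.14 for 80 dpi animal 27 over naive and 0.27 for 17 dpi animal 1 over naive. Over WT it gave -0.89, -0.89, -0.81 and -0.70 at 80 dpi, against 0.09, -0.06 and 0.23 at 17 dpi. The TG over WT ratios at the times did not overlap. Gfap fell by 0.52 ± 0.12 (adjusted p = 0.022, limma), and none of its 3 probes passed alone (-0.60 ± 0.19, -0.80 ± 0.28 and -0.15 ± 0.21). The fold change was -0.14 in title order. Nfkbia, the mouse gene for IkappaBalpha, gave -0.36 ± 0.47 and did not pass (adjusted p = 0.67, limma). Whether its probe detects the transcript of the transgene was not tested. Its ratio was -0.12 on the direct array, -0.99 for 80 dpi animal 27 over naive and -0.98 for 17 dpi animal 1 over naive.

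Of 34 reactive astrocyte genes, 4 fell and 1 rose, beside 11.7% of all features called (median -0.19, and 0.23 in title order). The median was -0.45 without TG 17 dpi animal 1 and 0.03 without WT 17 dpi animal 1. S100a10, a marker of reactive astrocytes that other cells also express, fell by 1.20 ± 0.16 and the glycosyltransferase gene B3gnt5 by 0.48 ± 0.06, beside Gfap and Cxcl10, and Serping1 rose. Of 28 homeostatic astrocyte genes the growth factor receptor gene Fgfr3 rose (0.68 ± 0.20) and the metallothionein gene Mt2 fell (-0.82 ± 0.13). Of 22 NF-kappaB pathway genes Rela, the p65 subunit (0.32 ± 0.08), and Traf1 (0.26 ± 0.08) rose and 0 fell, with a median of -0.14 that was 0.12 in title order, -0.48 without TG 17 dpi animal 1 and 0.07 without WT 17 dpi animal 1.

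Myelin genes did not pass. Of 25, 0 rose and 0 fell, beside 11.7% of all features called (median 0.12, and 0.43 without TG 17 dpi animal 1). Mbp, the myelin basic protein gene, gave 0.54 ± 0.22. Of 18 oligodendrocyte lineage genes only Epn2 rose (0.52 ± 0.09). Of 21 cholesterol synthesis genes Ebp (-0.59 ± 0.14) and Msmo1 (-0.30 ± 0.07) fell, and neither probe of Msmo1 passed alone. In peripheral nerve, whose roots lie on the cord, 3 of 10 genes rose, beside 6.71% of all features: Ncmap (0.67 ± 0.17), Pmp22 (0.41 ± 0.11) and Drp2 (0.37 ± 0.09). Separate probes of Pmp22 differed (0.14 and 0.67).

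Genes of neurons were called in both directions, beside 11.7% of all features. The neurofilament gene Nefm (1.00 ± 0.28) and Prph, the peripherin of motor and sensory neurons (0.83 ± 0.23), rose among 28 genes of neuron structure. Of 27 synapse genes the vesicle protein gene Sv2a (0.67 ± 0.14), the inhibitory vesicle transporter gene Slc32a1 (0.59 ± 0.15) and Cplx2 (0.47 ± 0.13) rose and the glutamate transporter gene Slc17a7 fell (-0.36 ± 0.09). The 4 probes of Cplx2 ran from 0.03 to 1.18. Of 17 neuropeptide genes Grp (-0.83 ± 0.17), Nmu (-0.60 ± 0.15) and Trh (-0.43 ± 0.10) fell. Of 21 immediate early genes 6 rose, beside 6.71% of all features, and 0 fell (median 0.06, and -0.06 without TG 17 dpi animal 1), among them Klf4 (0.51 ± 0.12), Dusp1 (0.38 ± 0.09), Fosb (0.38 ± 0.07), Junb (0.33 ± 0.10) and Egr4 (0.21 ± 0.06). The probes of Junb disagreed (-0.10 and 0.75). Mt2 was the member of 17 metallothionein and redox genes that passed. Per1 and Mertk rose among 14 glucocorticoid-responsive genes, Plk1 among 31 cell cycle genes and Lep among 11 adipocyte genes, with 0 lower in each list, and none of 13 genes of ependyma and cilia passed.

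The lists with the most members called were those of the ribosome and the respiratory chain. Of 45 ribosomal protein genes, 22 fell and 0 rose (median -0.55), beside 4.96% of all features lower. Rpl35, a ribosomal protein gene outside that list and named as 1 of the 12 lowest genes, had a ratio of -1.72 on the direct array, -0.27 for 80 dpi animal 27 over naive and 1.03 for 17 dpi animal 1 over naive. Its TG over WT ratios were 0.03, -0.03, -0.73 and -0.16 at 80 dpi, against -0.59, -0.87 and 0.11 at 17 dpi. As for Meg3, with the opposite sign, the 17 dpi animal stood apart from naive cord and the 80 dpi animal was near it. Rpl35 fell by 1.31 ± 0.15 (adjusted p = 0.00188, limma). The list members Rpl41 (-1.13 ± 0.23), Rps27 (-1.02 ± 0.17), Rpl27 (-0.90 ± 0.17), Rps20 (-0.72 ± 0.10), Rpl36 (-0.69 ± 0.11) and Rpsa (-0.58 ± 0.06) fell as well, and so did Rps27l (-1.29 ± 0.19) and Rpl22l1 (-1.22 ± 0.21), which encode ribosomal protein paralogues. Separate probes of Rps20 differed (-0.30 and -1.13). Ribosomal protein genes have many near-identical pseudogenes that their probes may also detect. The list median was -0.77 by the direct route, -0.58 through naive TG and -0.41 through WT, and -0.25 without TG 17 dpi animal 1.

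Of 43 respiratory chain genes, 13 fell, beside 4.96% of all features, and 1 rose (median -0.57). Ndufa4 (-1.11 ± 0.30), Ndufa2 (-1.03 ± 0.19), Ndufa5 (-0.87 ± 0.15), Ndufb9 (-0.59 ± 0.13), Cox7c of complex IV (-0.98 ± 0.17) and Cycs, cytochrome c (-0.78 ± 0.12), were among the lower ones. Its median was -0.78 by the direct route, -0.70 through naive TG and -0.34 through WT, and -0.16 without TG 17 dpi animal 1. The median dye effect over the list was -0.19. It was larger for Cox7c (-1.22), which gave 1.56, 1.75 and 1.77 on the 80 dpi TG over WT arrays with TG in Cy3 and -1.08 with TG in Cy5. Atp5md, a subunit linked to ATP synthase (-1.19 ± 0.33), the chaperone gene Pfdn4 (-1.39 ± 0.40) and the predicted gene Gm6607 (-1.11 ± 0.16) were also among the 12 lowest. The 865 genes called lower had a median genomic length of 11345 bases, against 18425 for 1295 called higher and 18690 for all 19046 with a length. Across genes the fold change had a Spearman correlation of 0.07 with length, a description over genes that share arrays. With the linear trend with gene length removed 3632 features were called, of which 3459 were among the 3598. Genomic length is not the length of the RNA. RNA quality values are not given for these samples, and their part in the calls of shorter genes and of noncoding RNAs was not tested.

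**Figure D2:**
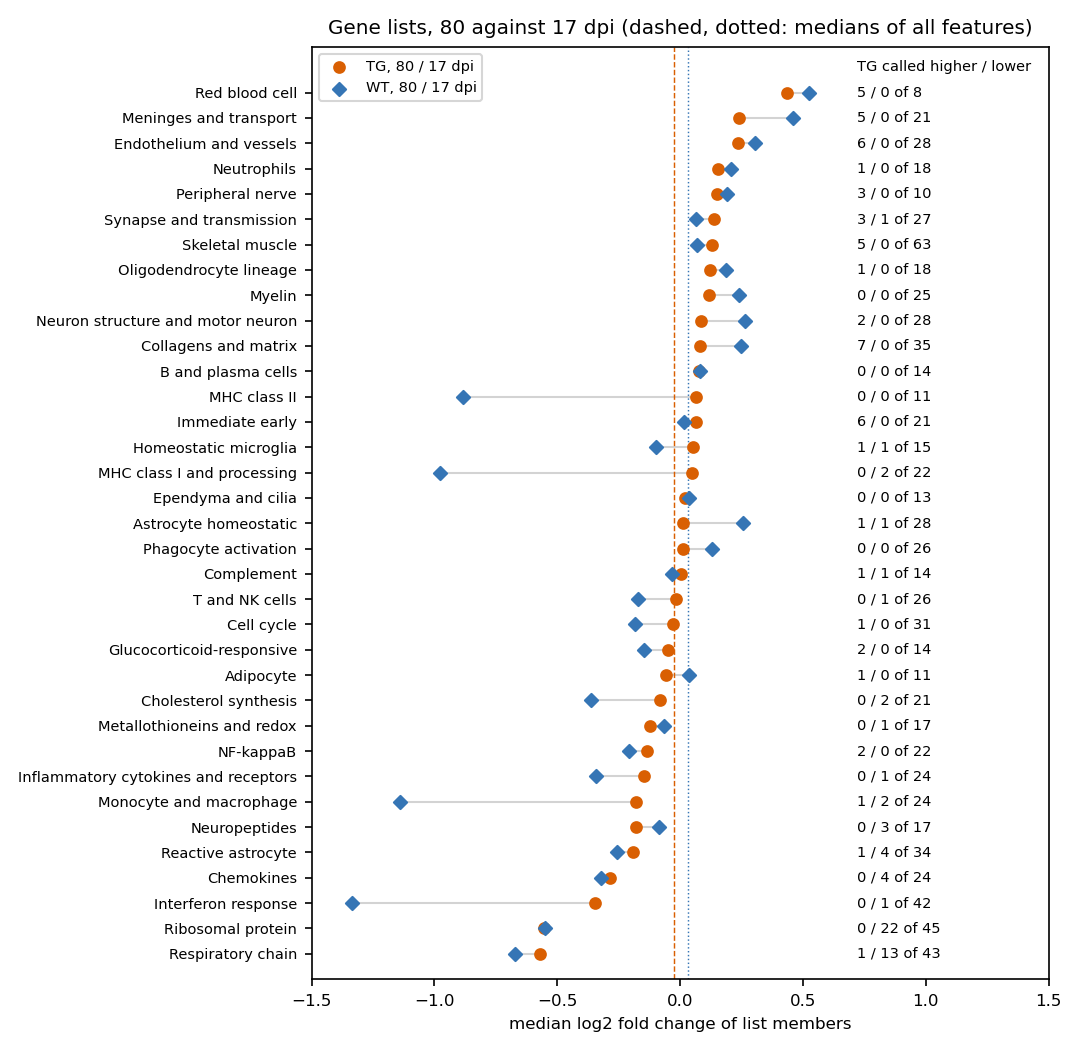
Median log2 fold change at 80 over 17 dpi of the members of 35 gene lists in TG cord (circles) and WT cord (diamonds), with the number of members called higher and lower in TG of those measured. Ribosomal protein and respiratory chain lists lie between -0.67 and -0.55 in both genotypes, while the MHC, interferon and monocyte lists are low in WT and nearer 0 in TG.

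Skeletal muscle genes were set aside before genes were ranked, since they were high in TG 80 dpi animals 21 and 27. Together with genes high on both 10 dpi arrays of TG animal 1-5 they made 87 features, of which 8 were called higher. Acta1, the skeletal actin gene, had 3.77 on the direct array, 3.31 for 80 dpi animal 27 over naive and -0.22 for 17 dpi animal 1 over naive. Over WT it gave 2.87 for animal 21, 2.81 for animal 27 and 0.53 and -0.63 for animal 26 at 80 dpi, against -0.25, -0.03 and 0.48 at 17 dpi. The excess was in animals 21 and 27 and not in animal 26. The fold changes were 2.86 ± 0.67 for Acta1, 1.81 ± 0.50 for Ckm, 1.77 ± 0.49 for Atp2a1 and 0.75 ± 0.13 for Pygm. Of 63 list members, 5 were called higher, beside 6.71% of all features, with a median of 0.13. With the muscle median of each array as a covariate 3709 features were called, of which 3133 were among the 3598.

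**Figure D3:**
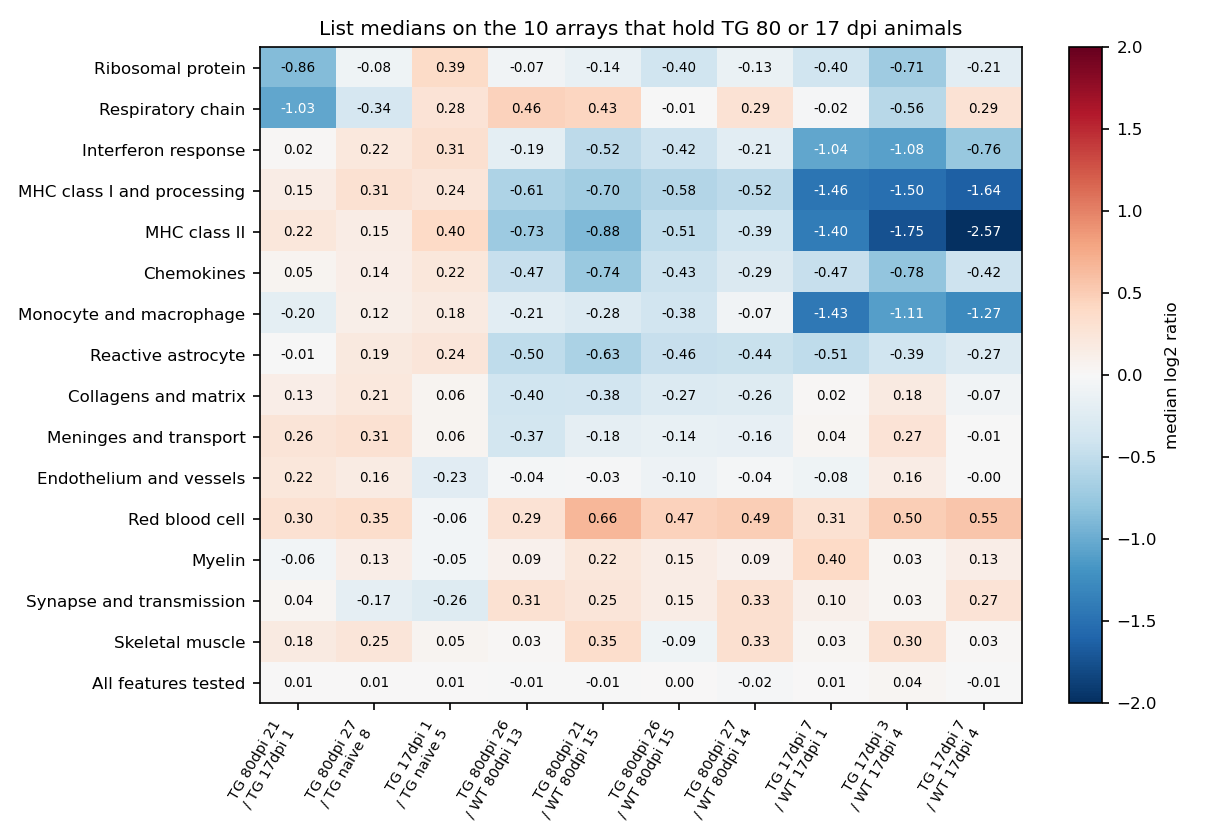
Median deposited log2 ratio of 15 lists and of all features tested on each of the 10 arrays with TG 80 or 17 dpi animals, numerator over denominator as named under each column. The ribosomal and respiratory chain medians are lowest on the direct array (-0.86 and -1.03), and the muscle median is highest on the TG over WT arrays of animals 21 and 27 (0.35 and 0.33), with 0.30 for 17 dpi animal 3.

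Each time was also set against naive TG cord. At 17 dpi, 2440 features were higher than in naive TG cord (7.91%) and 3132 lower (10.2%), together 18.1%. At 80 dpi 3 were higher (0.00973%) and 0 lower by limma, with 854 at an unadjusted p under 0.05. These contrasts share the naive animals with each other and the EAE animals with the contrast of times. The 17 dpi count fell to 36 without naive TG animal 5 and to 159 without TG 17 dpi animal 1, and was 11687 without WT 17 dpi animal 4. The 80 dpi count was 0 without TG animal 21 or 27, without naive TG animal 5 or 8, and without naive WT animal 2 or 4.

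The 3 features above naive at 80 dpi were S100a8, a calcium-binding alarmin of neutrophils and monocytes, Ogn and Mgp. S100a8 had 4.11 for 80 dpi animal 27 over naive and 4.87 for 17 dpi animal 1 over naive. Its fold change over naive was 4.05 ± 0.55 at 17 dpi (adjusted p = 0.00155, limma) and 5.09 ± 0.51 at 80 dpi (adjusted p = 0.00668, limma). Between the times S100a8 did not pass (1.04 ± 0.54), and it was above naive at both. Ogn gave 0.29 ± 0.26 at 17 dpi and 2.56 ± 0.24 at 80 dpi, and Mgp 0.54 ± 0.20 and 1.77 ± 0.19. Igf2 gave -0.51 ± 0.33 at 17 dpi and 2.23 ± 0.31 at 80 dpi (adjusted p = 0.077, limma).

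Cxcl10 gave 3.00 ± 0.76 over naive at 17 dpi (adjusted p = 0.0192, limma) and 0.37 ± 0.71 at 80 dpi. The values were 1.60 ± 0.47 and -0.01 ± 0.44 for Ccl2, 0.54 ± 0.13 and 0.02 ± 0.12 for Gfap, and 1.21 ± 0.15 and -0.10 ± 0.14 for Rpl35. With the opposite sign, Meg3 gave -2.30 ± 0.23 at 17 dpi and -0.12 ± 0.21 at 80 dpi, and Pltp -1.38 ± 0.24 and 0.34 ± 0.22. Each of these 6 genes passed at 17 dpi and none at 80 dpi. The difference between the times for each is the tested contrast given above.

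**Figure D4:**
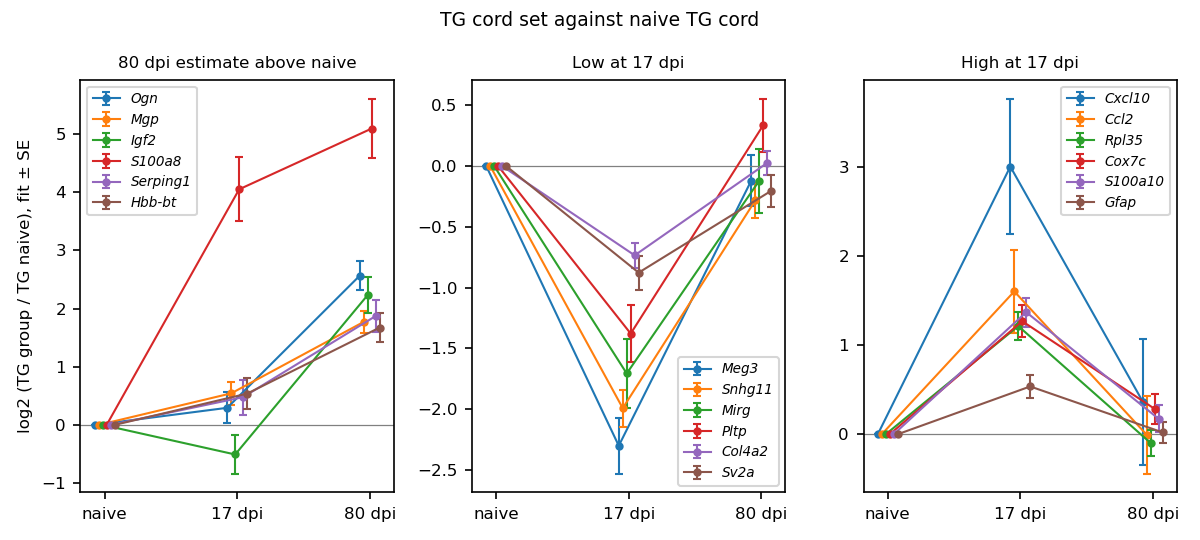
Fold change over naive TG cord (log2, fit ± SE) at 17 and 80 dpi for 18 genes, with naive at 0. Genes of the middle and right panels lie away from 0 at 17 dpi and within 0.37 of it at 80 dpi, while those of the left panel lie between 1.67 and 5.09 at 80 dpi.

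Whether the change in TG cord differed from that in WT littermates was tested in the same model, as the TG change minus the WT change. It was higher for 210 features (0.681%) and lower for 46 (0.149%), together 0.830%. WT cord itself had 943 features higher (3.06%) and 1084 lower (3.52%) at 80 against 17 dpi, together 6.57%. Without TG 80 dpi animal 21 the difference was called for 76 features, and without WT 17 dpi animal 4 for 1125. Igf2, Ogn, Meg3, Rpl35, Cxcl10 and Ccl2 moved the same way in WT, and their differences did not pass, from -1.13 ± 0.36 for Igf2 (adjusted p = 0.23, limma) to 0.69 ± 0.82 for Cxcl10.

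The largest differences were those of genes that fell in WT and hardly moved in TG. Arg1, arginase of alternatively activated macrophages, had TG over WT ratios of -0.25, -0.57, -0.25 and -0.22 at 80 dpi, against -3.65, -3.35 and -4.56 at 17 dpi. On the direct array it gave -0.06. The WT array of 17 over 80 dpi gave 4.88, so WT cord was far above TG cord at 17 dpi and near it at 80 dpi. Its change was -0.34 ± 0.25 in TG and -4.12 ± 0.26 in WT, a difference of 3.79 ± 0.28 (adjusted p = 6.96e-05, limma).

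The chitinase-like genes Chil4 and Chil3, markers of the same macrophages, gave 0.16 ± 0.20 in TG against -3.78 ± 0.21 in WT, and 0.12 ± 0.15 in TG against -2.70 ± 0.15 in WT. Complement factor B, Cfb, gave -0.04 ± 0.25 in TG against -3.16 ± 0.26 in WT. The acute phase gene Hp gave 0.72 ± 0.33 in TG against -2.13 ± 0.34 in WT. The T cell chemokine gene Ccl5 gave 0.07 ± 0.23 in TG against -2.69 ± 0.25 in WT. None of these passed in TG, and all passed in WT and as a difference.

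By list, 13 of 42 interferon genes had a higher change in TG than in WT, beside 0.681% of all features. A lower one was called for 0, beside 0.149% of all features, which does not set a list of 42 genes apart. The median changes of the interferon list were -0.35 in TG and -1.34 in WT. Igtp gave -0.79 ± 0.32 in TG against -3.28 ± 0.33 in WT and Cxcl9 -0.60 ± 0.21 in TG against -3.21 ± 0.22 in WT. The same held for 12 of 22 MHC class I and processing genes, with medians of 0.05 in TG and -0.98 in WT, and for 9 of 24 monocyte and macrophage genes, with medians of -0.18 in TG and -1.14 in WT. Of 11 MHC class II genes 4 passed, with medians of 0.07 in TG and -0.88 in WT. They were H2-Aa (difference 1.62 ± 0.33), H2-DMa (1.43 ± 0.26), H2-DMb1 (1.20 ± 0.17) and H2-DMb2 (0.72 ± 0.15), of which all but H2-DMa were named after their values were seen. H2-Ab1 did not pass (1.48 ± 0.31, adjusted p = 0.0582, limma). The MHC class II median was -0.73, -0.88, -0.51 and -0.39 on the TG over WT arrays at 80 dpi, against -1.40, -1.75 and -2.57 at 17 dpi.

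**Figure D5:**
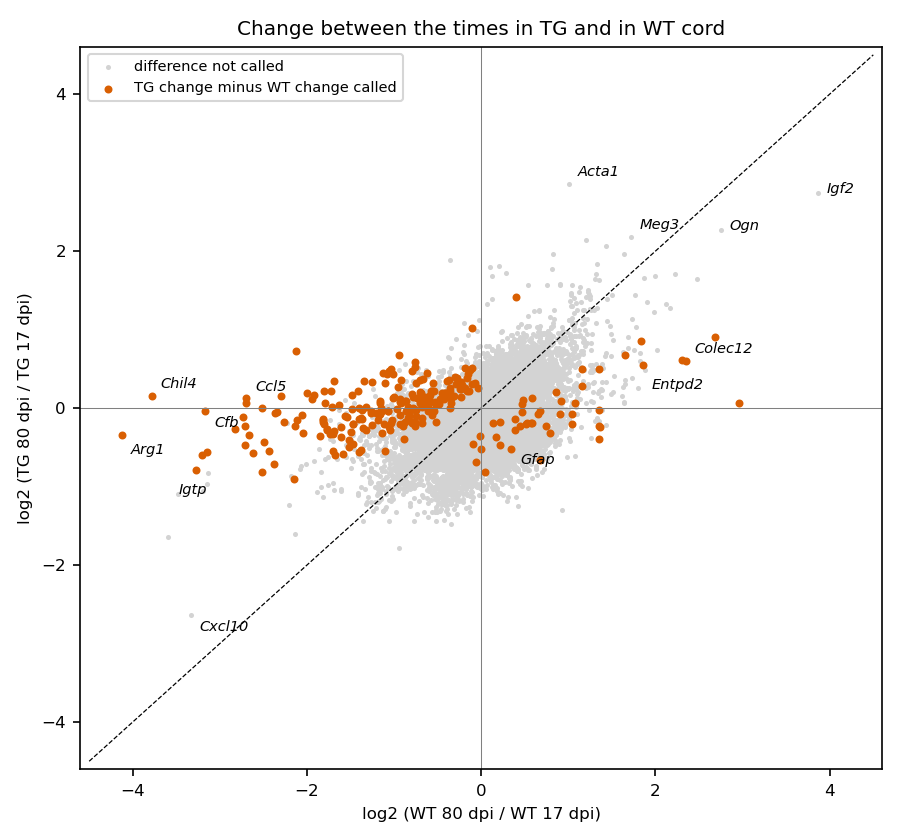
Log2 fold change at 80 over 17 dpi in TG cord (vertical) against WT cord (horizontal) for each feature tested, with those whose difference was called in orange and equality as a dashed line. Arg1, Chil4, Cfb and Ccl5 lie between -4.12 and -2.69 in WT and near 0 in TG, and Igf2, Ogn, Meg3 and Cxcl10 lie away from 0 in both.

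A smaller set changed less, or the other way, in TG than in WT. The scavenger receptor gene Colec12 gave 0.60 ± 0.30 in TG against 2.35 ± 0.31 in WT, the ectonucleotidase gene Entpd2 0.55 ± 0.14 in TG against 1.86 ± 0.15 in WT, and Fcrls, a microglial gene, -0.24 ± 0.14 in TG against 1.36 ± 0.15 in WT. Agt, the angiotensinogen gene that astrocytes express, gave -0.24 ± 0.22 in TG against 1.35 ± 0.24 in WT, Apoc4 -0.07 ± 0.18 in TG against 1.05 ± 0.19 in WT and Lxn -0.32 ± 0.18 in TG against 0.78 ± 0.19 in WT. Separate probes differed for the TG change of Colec12 (1.13 and 0.07), Fcrls (0.07 and -0.55) and Lxn (-0.07 and -0.57). The change of Gfap was lower in TG, at -0.52 ± 0.12 against 0.34 ± 0.13 in WT, a difference of -0.86 ± 0.14 (adjusted p = 0.0109, limma), and so was that of Mt2 (-0.82 ± 0.13 in TG against 0.04 ± 0.14 in WT, adjusted p = 0.0197, limma). The WT change of Gfap did not pass. Ribosomal and respiratory chain genes had 0 members called as different between the genotypes. With 0.830% of all features called, this does not set lists of 45 and 43 genes apart. Their medians were -0.55 and -0.57 in TG against -0.55 and -0.67 in WT.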

How the data were processed

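Spinal cord RNA, amplified and labelled with Cy5 and Cy3, was hybridised in pairs of animals. The authors applied global loess within arrays and quantile normalization between them with limma, per the labels, and deposited 1 log ratio per probe and array, whose unstated base was taken as log2. The scanner, the background correction and the treatment of dim probes are not stated. Of 44290 probes, 32042 had 1 gene symbol, 47 several and 12201 none in the platform annotation. Symbols were updated through RefSeq (GRCm38.p6), probes of 1 gene were averaged, and features with values on at least 12 of 16 arrays were kept (30835). The 4 arrays of 10 dpi animals share no animal with the others and were left out of the model.

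Features were fitted in R 4.3.3 with limma 3.58.1 by generalised least squares with a coefficient per group, a dye effect per feature and 1 correlation for arrays that share an animal (0.24, over 30608 features). Empirical Bayes moderation used 10 residual and 1.81 prior degrees of freedom, and p-values were adjusted by Benjamini-Hochberg over all features, with a threshold of 0.05. The pooled log-likelihood was higher by 86016 in the direction used than in title order. That direction was chosen with these data in view, and the value pools features that share arrays, so it is no test of the direction. The p-values rest on the residual spread over arrays, many of which share animals. The spread between animals was not estimated for each feature, and the 3 animals in each TG group limit the precision. Named genes were the 12 highest and 12 lowest called genes with the same sign on the direct array, up to 5 members of each list with the smallest p, the 6 highest and 6 lowest of the difference between genotypes, 4 muscle genes, Gfap and Nfkbia. Features with TG over WT ratios above 1 on both 10 dpi arrays of TG animal 1-5 were set aside with the muscle list. The members, lists and tests were chosen with earlier results of these data known. Alternatives tried were the title order, no dye term, no animal correlation, scaled arrays, array weights, complete features, single probes, leaving out each animal, the direct array or animals 21 and 27, a muscle covariate and, added after seeing the data, removal of a trend with gene length.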

Additional observations from a re-analysis of the deposited data

Results flagged for a closer look

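The change at 80 against 17 dpi differed between TG and WT cord, by the test of the difference itself (limma, adjusted p under 0.05), for these named genes. The TG change minus the WT change was 3.94 for Chil4, 3.79 for Arg1, 3.13 for Cfb, 2.85 for Hp, 2.82 for Chil3, 2.76 for Ccl5, 2.61 for Cxcl9 and 2.49 for Igtp. It was 1.62 for H2-Aa, 1.43 for H2-DMa, 1.25 for Ms4a6d, 1.20 for H2-DMb1, 1.02 for Tap1 and 0.72 for H2-DMb2. It was -1.75 for Colec12, -1.61 for Fcrls, -1.58 for Agt, -1.31 for Entpd2, -1.12 for Apoc4, -1.11 for Lxn, -0.97 for Ncmap, -0.86 for Mt2 and -0.86 for Gfap.

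On the 4 arrays of TG over WT at 80 dpi, with the dye effect removed, 1 array lay far from the other three for 5 genes and 1 list. Where TG animal 26 was set against WT animal 13 the values were 0.26 for Hba-a2, 0.45 for Hbb-bt, -0.094 for S100a10 and -1.51 for Slc6a20a. Where TG animal 27 was set against WT animal 14 Cxcl9 gave -0.11, and for TG animal 21 against WT animal 15 the myelin list had a median of 0.27. Chance alone sets about 1 in 20 groups apart by this measure, and the arrays share animals. Many named genes and lists are given here, so these 5 genes and 1 list do not go beyond that rate.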

How the results depend on the processing

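The count of features called at 80 against 17 dpi in TG cord (3598) was 0 in title order, 77 with no dye term, 213 with arrays scaled to 1 spread, 10486 with array weights, 5446 with each probe on its own, 167 without the direct array and 1, Pltp, without TG 80 dpi animals 21 and 27. Leaving out 1 animal at a time gave 1 to 9288. The count of differences between the changes in TG and WT (256) was 0 in title order, 78 with no dye term, 1085 with the animal correlation at 0, 118 with scaled arrays, 1243 with array weights, 394 by probe, 140 without the direct array, 2 without animals 21 and 27, and 76 to 1125 without 1 animal. The count for TG at 17 dpi against naive (5572) was 0 in title order, 192 with no dye term, 3527 with scaled arrays, 11711 with array weights, 553 without animals 21 and 27, and 36 to 11687 without 1 animal. The count for TG at 80 dpi against naive (3) was 0 in title order, 5 with the animal correlation at 0, 242 with array weights, 6 by probe, 0 without animals 21 and 27, and 0 to 39 without 1 animal. In title order 3478, 1438, 2327 and 4711 features of these contrasts, in the order given, had an unadjusted p under 0.05. Of 96 named genes that passed, 96 no longer did in title order or without TG 17 dpi animal 1, 95 without TG 80 dpi animals 21 and 27, 93 without animal 21, 82 with scaled arrays, 81 with no dye term and 78 without the direct array, and none passed with the opposite sign under any alternative. The alternatives reuse the same arrays, so the kept signs are fixed in part. The causes of the changed counts were not tested. No paired analysis was possible because the animal numbers name animals and do not pair the groups; the sharing of animals between arrays is in the model.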
